A study of Mus musculus with 27 samples.

Results

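Eph receptors and their ephrin ligands were described by 10 genes, taken by symbol from the expression table of 24953 genes: the receptors Epha1, Epha2, Epha4, Epha7, Ephb2 and Ephb4, and the ligands Efna1, Efna5, Efnb1 and Efnb2. All 10 symbols were found, and 9 of them reached 1 TPM (a transcript level scaled for gene length and library total) in at least 3 of the 9 RNA-seq libraries. The cells were mK4, a mouse line derived from metanephric mesenchyme, the embryonic kidney tissue that turns into nephron epithelium. Control cells were unedited (labelled WT), Runx1KO cells carried a CRISPR deletion of the Runx1 exon that holds the start codon used in this line, and ZebDKO cells carried deletions of the start codon exons of both Zeb1 and Zeb2. Each genotype had 3 RNA-seq libraries from cells collected at or near confluency in medium with fetal bovine serum. All groups shared the parental line and the culture, and differed at least by the edit and by the cloning that followed it. Neither the number of clones behind the libraries of a knockout nor a sequencing date is stated in the sources used here. A second deposited set of levels holds control and Runx1KO libraries only, and whether ZebDKO libraries were prepared apart is not stated. Genotype, clone and a possible batch of ZebDKO libraries therefore cannot be told apart, and p-values measure the spread between these libraries.

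Eph receptors are tyrosine kinases of the plasma membrane. They bind ephrins on the surface of a neighbouring cell, and signal into both cells: forward through the receptor and in reverse through the ephrin. Ephrin-A ligands (Efna genes) are tethered to the membrane by a lipid anchor and ephrin-B ligands (Efnb genes) span it, and in general each binds receptors of its own class, with Epha4 as a receptor of both classes. The system is known for cell repulsion, the sorting of cells at tissue boundaries, axon guidance and the separation of arteries from veins, and Epha2 is a well known receptor of epithelial cells.

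The 9 libraries were alike in breadth, with 12541 to 12697 genes at 1 TPM or more. Deleting 1 exon leaves the rest of a transcript to be counted, so the TPM of an edited gene does not test its edit. Runx1 stood at 18.7, 15.6 and 17.9 TPM in control libraries, at 30.3, 30.1 and 28.5 TPM in Runx1KO libraries and at 9.4, 10.5 and 10.4 TPM in ZebDKO libraries. Zeb1 was at 15.1, 14.2 and 15.6 TPM in control, 0.1, 0.2 and 0.2 TPM in Runx1KO and 16.8, 16.6 and 14.8 TPM in ZebDKO libraries, while Zeb2 averaged 5.20, 0.20 and 1.70 TPM. Of 12 metanephric mesenchyme markers, 7 averaged at least 1 TPM in control libraries (Pax2 at 310.2 to 315.7 TPM, Hoxa11 at 212.4 to 217.4 TPM), whereas Six2 and Hoxd11 were at 0 and Wt1 and Cited1 at 0.4 TPM or less. Markers of epithelium moved with both knockouts: the summed level of 12 markers was 4.5 to 7.0 TPM in control, 2680 to 2760 TPM in Runx1KO and 1290 to 1350 TPM in ZebDKO libraries, mostly from Krt8, while Cdh1 stayed between 0.1 and 0.6 TPM in all 9 libraries and Epcam was at 0 outside ZebDKO libraries. The summed level of 5 blood cell markers was 0.20 TPM in each control library, 16.1 to 21.8 TPM in Runx1KO and 1.1 to 2.2 TPM in ZebDKO libraries, most of it from Laptm5, with Ptprc, Tyrobp and Hbb-b1 at 0 in all 9 libraries. The 7 endothelial markers summed to 1.0 to 5.8 TPM, and the 7 ureteric bud markers to 119 to 152 TPM with Ret and Wnt9b at 0. The 10 mesenchymal markers summed to 3100 to 3230 TPM in control, 2940 to 3010 TPM in Runx1KO and 2370 to 2410 TPM in ZebDKO. Most of that sum was Vim, averaging 2800, 2810 and 2090 TPM in the same order. By limma, 4 of 7 tested were over 2-fold lower at an adjusted p under 0.05 in Runx1KO and 2 in ZebDKO cells. Over all genes 5.10% and 7.28% were, and 0 of these markers were higher at that limit. Of 7 metanephric mesenchyme markers tested, 3 were lower at that limit in Runx1KO and 2 in ZebDKO cells. On the higher side there were 0 and 1, beside 7.91% and 7.49% of all genes. The part of these cell type markers in the results on Eph genes was not tested.

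By the values deposited for all 9 libraries, control mK4 cells expressed mainly 1 receptor and a pair of ligands of the chosen genes. Epha2 led at 254.3, 251.7 and 250.2 TPM in the 3 control libraries. Efna1, a ligand that binds Epha2, followed at 118.2, 126.1 and 116.1 TPM. Efnb2, the ligand of Ephb4 in blood vessels, stood at 108.9, 106.4 and 113.5 TPM. Ephb4 (33.9, 31.9 and 31.3 TPM) came next, and below it Efnb1 (28.2, 26.6 and 27.3 TPM) and Epha4 (28.1, 25.5 and 27.5 TPM) had overlapping levels. Efna5 was lower, at 19.1, 16.6 and 17.8 TPM. Epha7 was at 4.8, 5.0 and 4.9 TPM and Epha1 at 1.3, 1.3 and 1.4 TPM, while Ephb2 was listed at 0 in every control library. No other neighbours in this order overlapped. This order depended on the table: a second deposited table holds the same control and Runx1KO samples with other TPM values. There, control cells held Epha2 at 135.68 to 138.07 TPM and Efna1 at 141.9 to 147.11 TPM. Efnb2 was at 54.41 to 58.01 TPM, further below Efna1. Efna5 at 14.81 to 17.1 TPM lay above Efnb1 (13.19 to 13.77 TPM) and Epha4 (12.03 to 12.91 TPM), without overlap. Epha1 was at 0, 0.06 and 0.05 TPM.

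**Figure D1:**
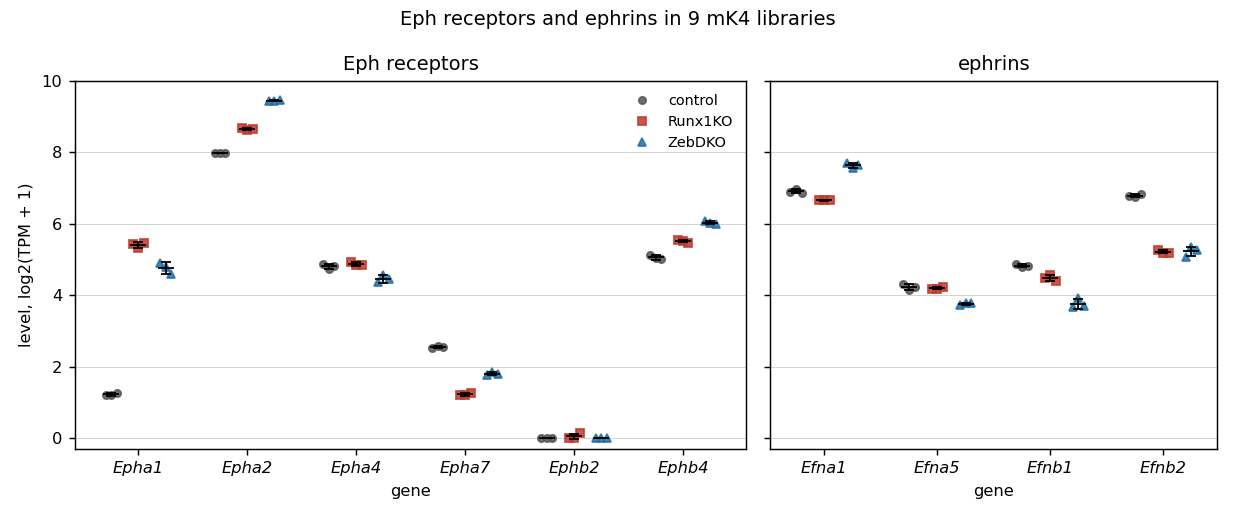
Levels of the 10 genes as log2(TPM + 1) in each of the 9 libraries (points), with the mean and SD of the 3 libraries of a genotype (black bars). Epha1 sat near the floor in control libraries and well above it in both knockouts, Efnb2 was lower in both knockouts, and Ephb2 lay at or near 0 throughout.

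The comparison of Runx1KO with control cells asks which genes depend on this transcription factor. In Runx1KO cells Epha1 rose from a low level, Efnb2 and Epha7 fell by over 2-fold, and the other genes moved less or did not pass the test. Changes were fitted on log2(TPM + 1) with limma, and a gene was called at over 2-fold with a Benjamini-Hochberg adjusted p under 0.05. Of the 9 genes tested, 1 was called higher and 2 were called lower, where 7.91% and 5.10% of all 13067 genes tested were. At any size, 7 of 9 had an adjusted p under 0.05, close to the 70.5% of all genes tested, so the small changes do not set the family apart. The median log2 change of the 9 genes was -0.04, beside -0.059 over all genes tested. In these bulk samples, a change in the level per cell and a change in the share of cells that express a gene cannot be told apart.

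Epha1, a receptor of the A class, was at 42.6, 39.0 and 43.3 TPM in the Runx1KO libraries, all above the 1.3 to 1.4 TPM of control cells. The log2 change was 4.19 (SE 0.057, adjusted p = 8.35e-09), which is 18.3-fold on the TPM + 1 scale and 31.2-fold between the mean TPM values of this table. The ratio rests on the low control level and so on the table: the second table lists the same Runx1KO libraries at 21.69, 19.7 and 21.94 TPM and the control libraries at 0, 0.06 and 0.05 TPM. Epha1 overlaps the oppositely transcribed gene Zyx by 1660 bp, and no source used here gives the strand setting of the counting, so reads in the overlap cannot be told apart. Zyx itself was at 76.9 to 89.1 TPM in control and 85.6 to 97.0 TPM in Runx1KO libraries.

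Efnb2, a ligand of B-class receptors, was at 37.5, 35.6 and 35.5 TPM in Runx1KO libraries and did not overlap the control libraries. It fell by 1.57 on the log2 scale (SE 0.038, adjusted p = 7.91e-08), or 2.97-fold. Epha7, an A-class receptor, was at 1.3, 1.3 and 1.4 TPM, again below every control library. It fell by 1.34 on the log2 scale of TPM + 1 (SE 0.064, adjusted p = 2.32e-06), a 3.68-fold drop between mean TPM values. Folds given below for Epha7 are on the TPM + 1 scale, where they are smaller, and are not to be set against this ratio.

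Among the smaller changes, Epha2 was at 410.7, 394.1 and 400.4 TPM in Runx1KO libraries, 1.59-fold above control (log2 change 0.67, SE 0.024, adjusted p = 5.52e-07). Ephb4, the B-class receptor that pairs with Efnb2 in vessels, was at 46.1, 45.0 and 43.5 TPM, 1.38-fold above control (log2 change 0.46, SE 0.042, adjusted p = 6.37e-05). Both receptors were higher in 3 of 3 libraries without overlap. The ligands went the other way: Efna1 was at 99.9, 99.8 and 100.5 TPM, 1.20-fold below control (adjusted p = 0.000489), and Efnb1, a transmembrane ligand encoded on the X chromosome, was at 21.4, 22.6 and 20.3 TPM, 1.27-fold below control (adjusted p = 0.000632). Epha4 at 29.4, 27.6 and 27.9 TPM and the lipid-anchored ligand Efna5 at 17.1, 17.1 and 17.8 TPM overlapped their control levels. Their log2 differences had 95% confidence intervals of -0.05 to 0.18 and -0.17 to 0.10. After median-ratio scaling the difference of Epha4 was 0.12 with an adjusted p of 0.042, and that of Efna5 changed sign. Ephb2, a B-class receptor, was listed at 0, 0 and 0.1 TPM and was not tested.

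**Figure D2:**
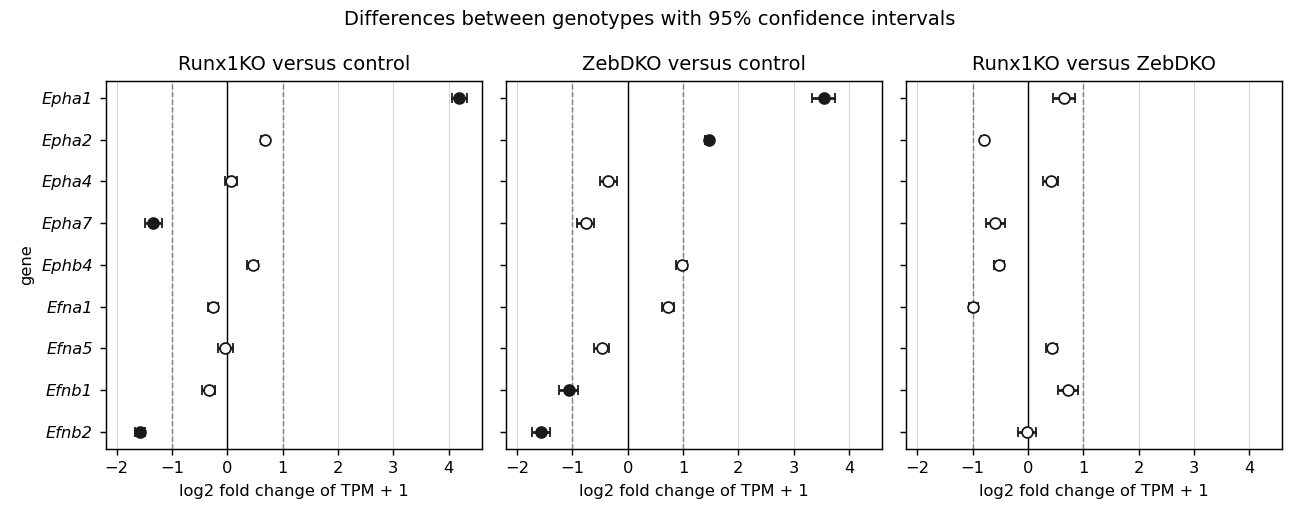
Log2 fold changes of TPM + 1 with 95% confidence intervals from limma for the 9 genes tested, in the 3 comparisons of 3 libraries against 3. Filled points were called at over 2-fold and adjusted p under 0.05, open points were not, and dashed lines mark 2-fold; Epha1 lies farthest from 0 in both comparisons with control, and Efnb2 lies near 0 between the knockouts.

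Loss of Zeb1 and Zeb2, repressors that bind CAGGTA and CAGGTG sequences, was compared with the same control libraries. In ZebDKO cells Epha1 and Epha2 rose by over 2-fold and Efnb2 and Efnb1 fell by over 2-fold. That is 2 of 9 genes called higher and 2 of 9 called lower, where 7.49% and 7.28% of 12974 genes tested were. All 9 had an adjusted p under 0.05 at any size, where 79.4% of all genes did. The median log2 change of all genes was -0.184 in this comparison and 0.004 after median-ratio scaling, so values near 0 depend on the scaling, and of all calls 50.7% were higher as deposited, 64.2% after median-ratio scaling and 57.2% after quantile normalization. The median of the 9 genes was -0.35 as deposited.

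Epha1 was at 28.9, 26.9 and 23.1 TPM in ZebDKO libraries, none near the control level (log2 change 3.54, SE 0.087, adjusted p = 7.22e-08). This is 11.7-fold on the TPM + 1 scale and 19.7-fold between mean TPM values. Epha2 was at 691.7, 693.7 and 701.5 TPM, 2.75-fold above control (log2 change 1.46, SE 0.023, adjusted p = 1.58e-08). Ephb4 was at 66.9, 63.8 and 63.3 TPM, all above control, and lay at the limit: its log2 change of 0.98 (SE 0.044, adjusted p = 1.22e-06) was not called as deposited and was called after median-ratio scaling (1.18), after quantile normalization (1.11) and without control replicate 1 (1.01).

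Efnb2 was at 32.8, 39.5 and 37.5 TPM, below every control library by 2.95-fold (log2 change -1.56, SE 0.068, adjusted p = 1.06e-06). Efnb1 was at 11.8, 14.2 and 11.9 TPM, 2.09-fold below control (log2 change -1.06, SE 0.074, adjusted p = 9.01e-06), a call that was lost after median-ratio scaling (-0.87) and quantile normalization (-0.86). Efna1 was at 207.3, 189.1 and 200.7 TPM, above every control library by 1.65-fold (adjusted p = 6.32e-06). The remaining genes were lower without overlap. Epha7 was at 2.4, 2.6 and 2.5 TPM (log2 change -0.754, 1.69-fold on the TPM + 1 scale, adjusted p = 2.63e-05). Efna5 was at 12.3, 12.8 and 12.7 TPM (1.38-fold, adjusted p = 0.000207) and Epha4 at 19.5, 22.7 and 21.0 TPM (1.27-fold, adjusted p = 0.00175). After median-ratio scaling, Epha4 had a log2 difference of -0.15 and an adjusted p of 0.0503. Ephb2 was listed at 0 in all 3 libraries.

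The knockouts were also set against each other, which leaves out the control libraries that both earlier comparisons share. By limma, 0 of the 9 genes differed by over 2-fold, where 9.20% of 13071 genes were called higher in Runx1KO than in ZebDKO cells and 6.59% lower. At any size, 8 of 9 had an adjusted p under 0.05, and 8 of 9 an unadjusted p under 0.05, where 80.0% of all genes had an adjusted p under 0.05. The median log2 difference of all genes was 0.149 as deposited and -0.005 after median-ratio scaling, and the share of calls that were higher in Runx1KO cells went from 58.3% to 46.2%, and to 47.6% after quantile normalization.

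Efna1 came closest to the limit, 1.98-fold lower in Runx1KO than in ZebDKO cells (log2 difference -0.98, SE 0.037, adjusted p = 4.82e-07), and was called after median-ratio scaling (-1.15) and without ZebDKO replicate 2 (-1.02). Epha2 was 1.73-fold lower in Runx1KO cells (adjusted p = 1.78e-07) and Ephb4 1.43-fold lower (adjusted p = 1.04e-05). Epha7 was 1.5-fold lower there on the TPM + 1 scale (log2 difference -0.585, adjusted p = 0.000203). Efnb1 was 1.65-fold higher in Runx1KO cells (adjusted p = 8.54e-05), Epha1 1.57-fold (adjusted p = 0.000219), Efna5 1.35-fold (adjusted p = 4.86e-05) and Epha4 1.33-fold (adjusted p = 0.000434). Efnb2 was the exception: its level overlapped between the knockouts, with a log2 difference of -0.01 and a 95% confidence interval of -0.17 to 0.15. After median-ratio scaling it was -0.17 (adjusted p = 0.0411) and after quantile normalization -0.16 (adjusted p = 0.0475). In order of level, Epha2, Efna1 and Ephb4 led in both knockouts. Below them came Epha1 and then Efnb2 in Runx1KO cells, and Efnb2 and then Epha1 in ZebDKO cells. Efnb1 and Efna5 overlapped in ZebDKO cells, and no other neighbours in either order did.

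The family has 12 more genes in the table, of which 6 reached 1 TPM in at least 3 of the 9 libraries. Ephb3, a B-class receptor, was at 14.5, 15.9 and 17.0 TPM in control, 42.2, 40.3 and 37.9 TPM in Runx1KO and 19.6, 19.1 and 19.5 TPM in ZebDKO libraries. It was called higher in Runx1KO cells (log2 change 1.29, SE 0.066, adjusted p = 3.26e-06) and also higher than in ZebDKO cells (1.01, adjusted p = 1.16e-06), the latter not after median-ratio scaling (0.85) or quantile normalization (0.85). Efnb3, a transmembrane ligand, was at 7.4, 8.4 and 8.0 TPM in control, 6.8, 6.6 and 5.6 TPM in Runx1KO and 19.2, 24.0 and 26.1 TPM in ZebDKO libraries. It was called higher in ZebDKO than in control cells (1.42, SE 0.11, adjusted p = 1.46e-05) and lower in Runx1KO than in ZebDKO cells (-1.71, adjusted p = 8.05e-06). Efna2 averaged 32.9 TPM in control, 20.5 TPM in Runx1KO and 20.2 TPM in ZebDKO cells, a fall of under 2-fold in both (adjusted p = 1.27e-05 and 5.90e-05). Efna4 averaged 70.2, 72.2 and 81.6 TPM and Efna3 9.57, 6.63 and 9.10 TPM. Epha8 was at 1.1 to 1.3 TPM in ZebDKO libraries and at 0.2 TPM or less elsewhere, and it passed the filter on low values only through the ZebDKO libraries, so its values are given with no test.

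Summed over the family, receptor transcripts went from 331.9 to 337.5 TPM in control libraries to 547.5 to 572.4 TPM in Runx1KO and 830.2 to 832.4 TPM in ZebDKO libraries. Epha2 made up 75.1 to 75.8% of the receptor sum in control, 71.8 to 72.2% in Runx1KO and 83.3 to 84.3% in ZebDKO libraries. Ligand transcripts summed to 392.6 to 398.0 TPM in control, 272.8 to 288.7 TPM in Runx1KO and 389.2 to 399.0 TPM in ZebDKO libraries. The Efnb2 share of the ligand sum was 26.9 to 28.9% in control, 12.7 to 13.0% in Runx1KO and 8.2 to 10.1% in ZebDKO libraries. That of Efna1 was 29.6 to 31.8%, 34.6 to 36.8% and 48.6 to 52% in the same order. In Runx1KO cells Efna1 itself was lower, averaging 100 TPM against 120 TPM in control, while the ligand sum fell. Efna4 averaged 72.2 TPM there and 70.2 TPM in control. No test was made on these sums. In the table of 6 libraries the receptor sum was 202.6 to 208.3 TPM in control and 340.8 to 352.4 TPM in Runx1KO libraries, and the share of Efna1 in control ligands was 48.8 to 50.9%. The share of Epha2 was 66.3 to 67% in control and 66.9 to 67.6% in Runx1KO libraries there, so its lower share in Runx1KO cells was not seen in that table.

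**Figure D3:**
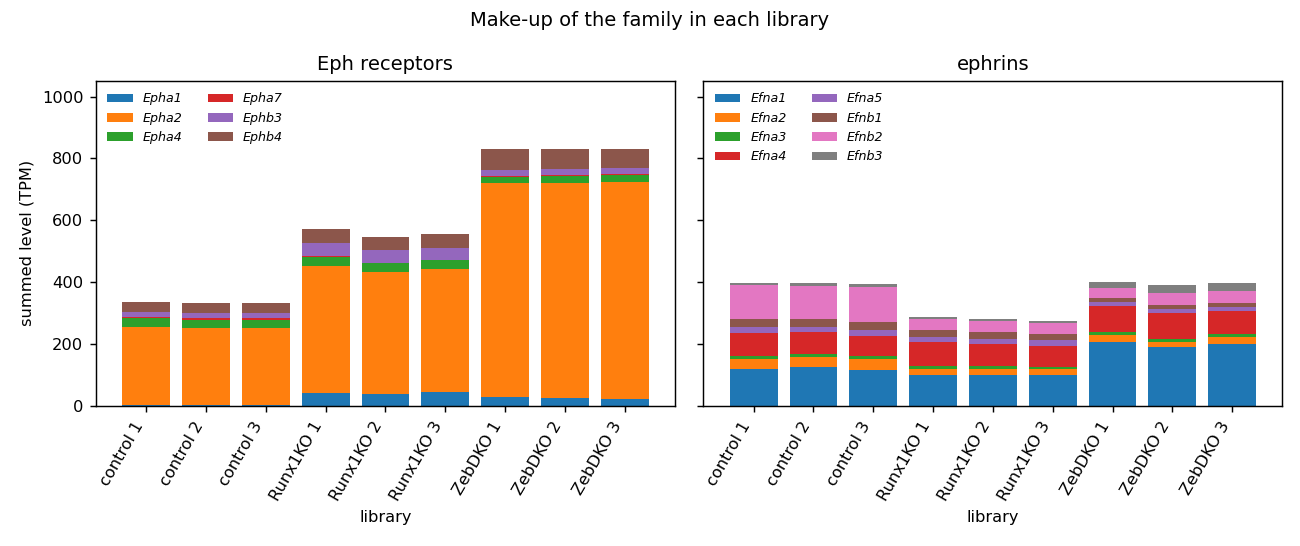
Levels in TPM stacked by gene for the receptors (left) and ephrins (right) in each of the 9 libraries; Epha8 and the receptors below 1 TPM in all libraries are left out. The receptor stack was tallest in ZebDKO libraries, with Epha2 as its main part, and the ligand stack was lowest in Runx1KO libraries.

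The genes that carry Eph and ephrin signals inside the cell were counted from 2 lists. Of 19 adaptors and kinases, 18 were tested in each comparison. By limma 0 were called in Runx1KO against control cells, where 7.91% of all genes were called higher and 5.10% lower. An unadjusted p under 0.05 was reached by 13 of the 18, beside 9522 of all 13067 genes tested, and their median log2 change was -0.07. Between the knockouts 0 were called, where 9.20% and 6.59% of all genes were, and 13 of 18 had an unadjusted p under 0.05, beside 10610 of all 13071. These shares at an unadjusted p lie near those of all genes and set the list apart in neither comparison. Rasa1, a Ras GTPase activating protein that Eph receptors recruit, was the 1 of 18 called lower in ZebDKO cells (7.28% of all genes were), at 29.1 against 62.0 TPM (log2 change -1.07, adjusted p = 6.12e-06), but not after median-ratio scaling (-0.87) or quantile normalization (-0.92). Of 10 genes of reverse signalling and ligand shedding, 9 were tested and 1 was called higher in each knockout, beside 7.91% of all genes in Runx1KO and 7.49% in ZebDKO cells, so the count of 1 says nothing about the list. This was Pard6b, a polarity protein linked to Efnb1, at 24.4 TPM in control, 191 TPM in Runx1KO and 124 TPM in ZebDKO cells (log2 changes 2.92 and 2.31).

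For the 5 chosen genes called against control, the genes of most similar profile were sought among 13373 others, by the root mean square difference over the 9 libraries of log2(TPM + 1) taken from each gene's own control mean. Epha1 was nearest to Sult2b1 (difference 0.115), Bok (0.129) and Mctp2 (0.133), of which Bok averaged 10.4, 188 and 124 TPM in control, Runx1KO and ZebDKO cells. Sult2b1 and Mctp2 averaged only 0.2 and 0.333 TPM in control cells, so their likeness depends on the TPM + 1 scale. Epha2 was nearest to N4bp3 (0.047), Fblim1 (0.053) and Sqstm1 (0.095). Epha7 was nearest to Twist2 (0.073), Cavin4 (0.086) and Pdrg1 (0.093). Twist2, a mesenchymal transcription factor, averaged 915, 351 and 570 TPM. Cavin4 was low at 1.63, 0 and 0.533 TPM, so its likeness also depends on the TPM + 1 scale. Efnb1 was nearest to Frs2 (0.053), Ermp1 (0.057) and Fignl1 (0.059). Efnb2 was nearest to Cxxc4 (0.072), Fmod (0.089) and Kcna5 (0.122), all of which were at 2.33 TPM or less on average in control cells. They averaged 0.133 TPM or less in each knockout, where Efnb2 averaged 36.2 and 36.6 TPM. Their likeness to Efnb2 therefore depends on the TPM + 1 scale too.

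Chromatin at the 10 loci was read from lists of ATAC-seq regions, which mark open chromatin, and from ChIP-seq peaks of Runx1 and Runx2, all on the mm9 genome build. The lists sort regions into those that closed in Runx1KO cells (8741, called Runx1-dependent), opened (9427, called Runx1KO-induced) or were stable (37481). They hold no values per replicate, so no test was made, and ZebDKO cells were not part of these assays. Within the gene and 50 kb on either side, 6 of 10 loci had a closing region, 7 an opening region and 7 a Runx1 peak. Over 10708 genes tested for expression that had a gene model, the shares were 44.6%, 58.9% and 63.2%. The median length of the 10 genes was 36.2 kb against 22.3 kb over all, which widens their windows. A closing region that held a Runx1 peak occurred at 1 of the 10 loci, beside 9.60% of all genes.

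Epha1 (ENSMUSG00000029859.4, chromosome 6 from 42308486 to 42323267, minus strand) had an opening region across its start site, chr6:42322881-42323873. There were 4 other opening regions and 0 closing regions in its window, which also holds Clcn1, Fam131b, Zyx and 2 taste receptor genes. No Runx1 or Runx2 peak lay in the opening regions. The 1 Runx1 peak of the window (5.01-fold enrichment) was in a stable region 23.6 kb past the start site, beyond the end of the gene. The 300 bases before the start site, all inside the opening region, are shown on the gene's strand (chr6:42323268-42323567) because this promoter opened in the cells in which the gene rose. Capitals mark the matches to CAGGTA or CAGGTG on either strand, the sequences that Zeb factors bind.
Epha1 promoter: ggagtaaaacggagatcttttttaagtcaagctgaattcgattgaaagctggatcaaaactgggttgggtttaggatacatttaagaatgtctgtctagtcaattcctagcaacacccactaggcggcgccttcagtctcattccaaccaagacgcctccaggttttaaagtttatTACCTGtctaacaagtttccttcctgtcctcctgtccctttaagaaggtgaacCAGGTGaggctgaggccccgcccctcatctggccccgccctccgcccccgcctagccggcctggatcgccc
These bases held 2 Zeb matches and 0 Runx matches (TGTGGT on either strand). A Zeb match was found in 25.5% of the 300-base promoters of 11245 genes tested, and in 62.7% of the middle 300 bases of opening regions. Of the 10 chosen genes, 3 had a Zeb match in the 300 bases before the start (Epha1, Ephb2 and Efnb2) and 0 had a Runx match, where 13.6% of all promoters had one.

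Epha7 (ENSMUSG00000028289.6, chromosome 4 from 28740281 to 28894649, plus strand) had closing regions only, 3 in its window. They lay 28.9 kb before the start (chr4:28711135-28711606), across the start (chr4:28739804-28740588) and 2.1 kb past it (chr4:28741849-28742880). The last of these held Runx2 peaks in control (4.58-fold enrichment) and Runx1KO cells (4.47-fold), and a further Runx2 peak 0.8 kb past the start, outside the listed regions, had 5.93-fold enrichment in control and 4.67-fold in Runx1KO cells. No Runx1 peak was listed at this locus. The promoter is shown as the counterpart to that of Epha1, with 300 bases before the start (chr4:28739981-28740280, plus strand), all inside a closing region.
Epha7 promoter: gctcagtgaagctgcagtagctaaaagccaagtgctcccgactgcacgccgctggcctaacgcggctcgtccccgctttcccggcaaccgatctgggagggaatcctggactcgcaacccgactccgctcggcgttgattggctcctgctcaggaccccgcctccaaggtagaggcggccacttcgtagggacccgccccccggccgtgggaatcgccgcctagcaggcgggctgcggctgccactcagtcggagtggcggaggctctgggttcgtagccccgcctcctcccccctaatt
It has no capitals, since it held 0 Runx and 0 Zeb matches. Of the 300-base promoters of genes tested, 13.6% held a Runx match and 25.5% a Zeb match. For the middle 300 bases of closing regions the shares were 35.5% and 18.7%.

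Efnb2 (ENSMUSG00000001300.8, chromosome 8 from 8617434 to 8661239, minus strand) kept a stable region at its start site. Its window held 2 closing regions, both past the end of the gene at 55.4 kb and 93.8 kb from the start, and 1 opening region at 91.8 kb. The nearer closing region, chr8:8605598-8606065, held a Runx2 peak in control (3.38-fold enrichment) and Runx1KO cells (4.53-fold), and no Runx1 peak was listed in the window. The part under the Runx2 peak of Runx1KO cells (chr8:8605650-8605935, plus strand) is shown because it carried a Runx2 peak in both genotypes within a region that closed, with capitals for the Runx match.
Efnb2 distal region: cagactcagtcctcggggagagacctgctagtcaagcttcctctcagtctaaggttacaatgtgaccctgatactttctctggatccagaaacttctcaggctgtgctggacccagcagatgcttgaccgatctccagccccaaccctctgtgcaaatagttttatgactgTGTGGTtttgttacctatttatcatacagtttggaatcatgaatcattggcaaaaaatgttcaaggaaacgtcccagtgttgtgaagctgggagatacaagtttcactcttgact
It held 1 Runx match and 0 Zeb matches. At least 1 Runx match was found in 34.4% of the middle 286 bases of all closing regions, with or without a Runx peak. The stretch shown was picked for its Runx2 peak, so that share is not the one to be met by chance here. The gene 4921522P10Rik and Arglu1 share the window, and no value ties the region to either gene or to Efnb2.

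Ephb4 (ENSMUSG00000029710.9, chromosome 5 from 137791337 to 137819897, plus strand) was the 1 locus with a closing region bound by Runx1. This region, chr5:137779541-137779804, lay 11.7 kb before the start and held peaks of Runx1 (4.55-fold enrichment) and Runx2 (5.45-fold in control and 3.67-fold in Runx1KO cells). A second closing region 4.1 kb before the start held a Runx2 peak in control cells only (3.86-fold). The window had 2 opening regions, at 16.3 kb before and 24.8 kb past the start, and the promoter was stable. The Runx1-bound region is shown whole on the plus strand.
Ephb4 upstream region: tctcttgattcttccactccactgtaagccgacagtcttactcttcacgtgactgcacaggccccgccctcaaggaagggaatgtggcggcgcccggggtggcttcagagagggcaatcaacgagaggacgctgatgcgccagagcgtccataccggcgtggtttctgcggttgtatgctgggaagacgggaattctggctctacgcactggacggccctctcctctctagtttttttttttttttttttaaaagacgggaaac
It held 0 exact Runx and 0 Zeb matches. A Runx match was found in 32.6% of the middle 264 bases of all closing regions, with or without a Runx peak. Only TGTGGT was searched for Runx, so sites that differ from it were not counted, and the count of 0 does not show that a Runx site is absent. Ephb4 had a higher level in Runx1KO cells (above), and Slc12a9, Srrt, Trip6 and Zan lie in the same window.

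**Figure D4:**
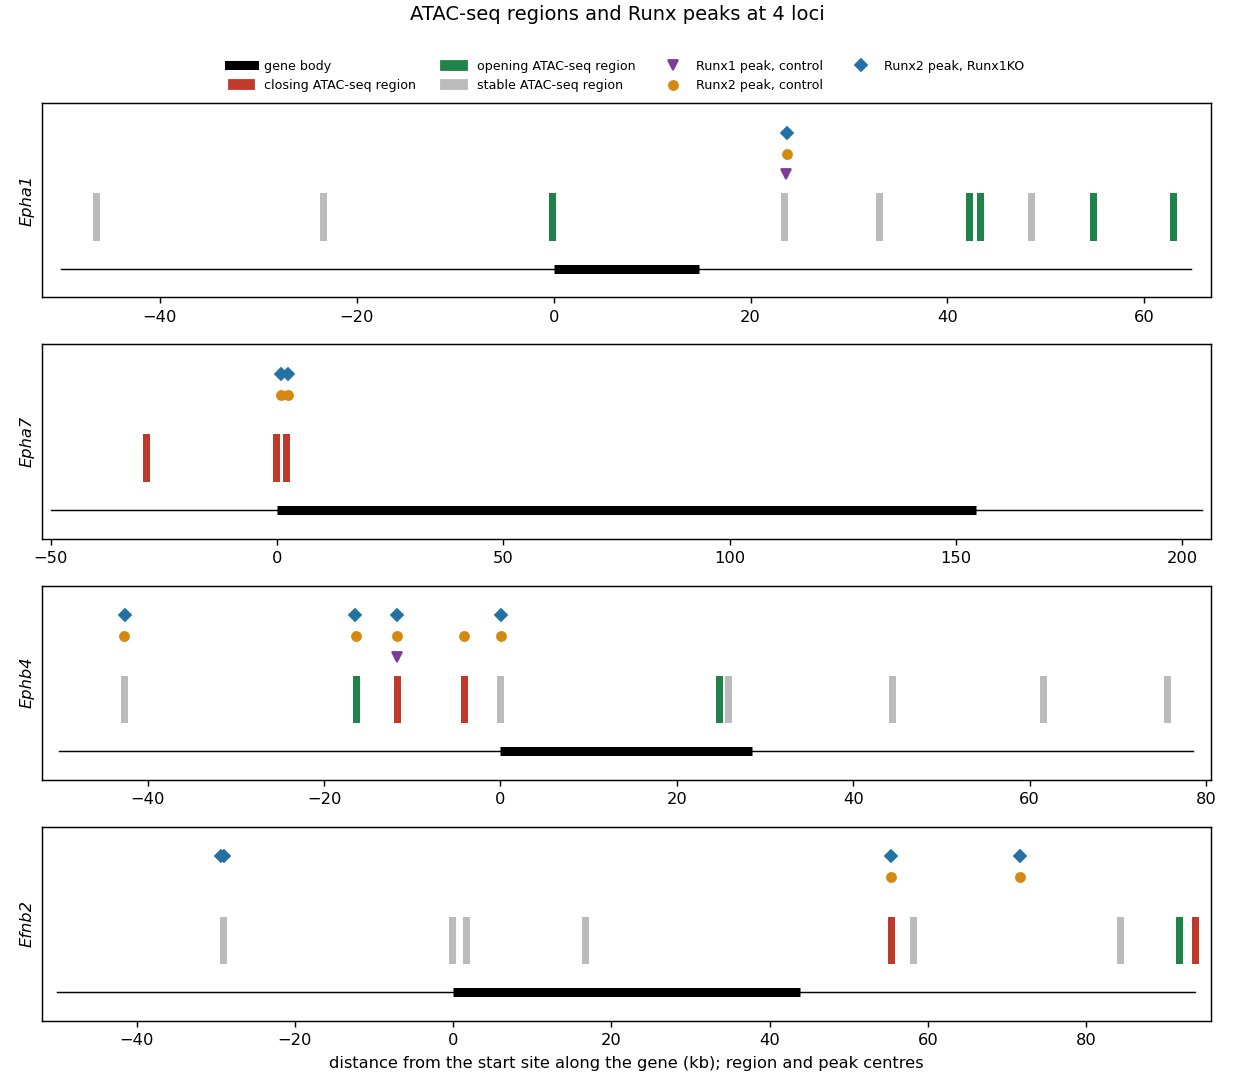
ATAC-seq regions (bars, at their centres and not to width) and ChIP-seq peaks (symbols) along the loci of Epha1, Epha7, Ephb4 and Efnb2, by distance from the start site in kb in the direction of the gene, with 50 kb on either side of the gene body (thick line). Epha1 has an opening region at its start, Epha7 has closing regions there, and at Ephb4 the Runx1 peak coincides with a closing region.

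Epha2 (ENSMUSG00000006445.3, chromosome 4 from 140857155 to 140885299, plus strand) had the most Runx1 peaks of the 10 loci, 7 in all, of which 6 lay in stable regions. The strongest, chr4:140842733-140843163, lay 14.2 kb before the start in a stable region, with 10.71-fold enrichment for Runx1 (q = 3.45e-36) and Runx2 enrichment of 9.48-fold in control and 9.20-fold in Runx1KO cells. Another Runx1 peak lay at the stable promoter, 0.1 kb before the start (4.45-fold). The 1 closing region of the Epha2 window, 9.7 kb past the start, held no Runx peak. Epha4 (ENSMUSG00000026235.7, chromosome 1 from 77363760 to 77511663, minus strand) had 3 closing regions, 1 of them with Runx2 peaks (4.40-fold in control and 5.28-fold in Runx1KO cells), and 0 opening regions. Its 1 Runx1 peak (4.09-fold) lay 1.1 kb before the start, in a stable region across the start. Ephb2 (ENSMUSG00000028664.8, chromosome 4 from 136203454 to 136391903, minus strand) had 2 opening regions inside the gene, yet was listed at 0.1 TPM or less throughout.

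Of the ligands, Efna1 (ENSMUSG00000027954.3, chromosome 3 from 89075655 to 89085064, minus strand) had 3 Runx1 peaks in stable regions between 29.6 and 52.7 kb past the start, and 2 opening regions at 6.6 and 7.6 kb before it. Its window is crowded and holds Efna3 and 7 other protein-coding genes. Efnb1 (ENSMUSG00000031217.8, chromosome X from 96331469 to 96344330, plus strand) had a Runx1 peak at its stable promoter (5.25-fold), where Runx2 was enriched 6.35-fold in control and 7.32-fold in Runx1KO cells, and 2 opening regions at 5.1 and 14.8 kb past the start. Efna5 (ENSMUSG00000048915.6, chromosome 17 from 62953533 to 63230666, minus strand) also had a Runx1 peak at a stable promoter (4.38-fold), and 2 closing and 2 opening regions deep in the gene. Over the 10 loci together, Zeb matches were found in 15 of 16 opening regions and 5 of 13 closing regions, where 78.9% of all opening and 40.5% of all closing regions held one. Runx matches were found in 6 of 16 opening and 7 of 13 closing regions, beside 35.4% and 54.5% of all.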

How the data were processed

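RNA was sequenced from 3 cultures each of control, Runx1KO and ZebDKO mK4 cells. Per the paper's methods and the submitters' processing notes, the authors trimmed reads with Trim Galore, aligned them with STAR to mm9, removed duplicates with sambamba, counted reads on RefSeq genes with featureCounts 1.6.2, and deposited TPM. Of the 2 TPM tables deposited, the one with all 9 libraries covers 24953 genes to 1 decimal and the one with 6 libraries covers 32788 genes to 2 decimals. How they differ, the gene lengths and the strand setting are not given in the sources used here. TPM keeps no read number, so depth is unknown, and levels under about 1 TPM move in coarse steps. ChIP-seq peaks came from MACS2 on combined replicates, less those that the Runx1 antibody gave in cells without Runx1. The fold enrichment over local background and the -log10 q-values are as deposited by the authors. The ATAC-seq lists, as deposited by the authors, hold regions found in at least 2 replicates, split by change; the columns of the authors' own comparison, a log2 fold change and a -log10 value, were not used.

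The 10 genes, the lists of signalling genes and the tests were chosen with earlier results of these data known. Each comparison had its own limma 3.58.1 model (R 4.3.3, variance trend, two-sided) of log2(TPM + 1) over its 6 libraries, restricted to genes that reached 1 TPM in 3 or more of them. The Benjamini-Hochberg adjustment ran over every gene in the model. Calls required a change of more than 2-fold together with an adjusted p below 0.05. Fold changes on this scale understate those of low genes. The fits were tested on simulated data, and no result of that is given here. A further list of signalling genes is not reported here. Named genes were the 10, other family members at 1 TPM in 3 of 9 libraries, up to 3 called genes per signalling list, direction and comparison, and the 3 most similar genes of each called gene. Loci and start sites came from GENCODE vM1 and sequences from the mm9 genome. Sharing 1 bp with a ChIP-seq peak counted as holding it. Python 3.11.15, pandas 2.3.3, numpy 2.4.6 and matplotlib 3.10.9 were used. Alternatives were other pseudocounts (0.1 and 0.5), filters, scalings and call limits, a replicate block, 1 fit over 9 libraries, a prior without the trend, omission of single libraries, the table of 6 libraries, flanks of 20 and 100 kb, 50% coverage of the peak and a q limit of 0.01.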

Additional observations from a re-analysis of the deposited data

Results flagged for a closer look

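In 2 genes of the family the knockouts moved in opposite directions from control, each with an adjusted p under 0.05 by limma, and differed in the direct comparison. Between the knockouts 80.0% of all genes had an adjusted p under 0.05. The share of all genes with this opposite pattern was not counted, so the 2 genes do not set the family apart. Efna1 was lower in Runx1KO cells (log2 change -0.26, not called) and higher in ZebDKO cells. The log2 difference between them was -0.98 (adjusted p = 4.82e-07, no overlap of 3 against 3 libraries). Efnb3 was likewise lower in Runx1KO cells (log2 change -0.287, adjusted p = 0.0163, not called) and higher in ZebDKO cells. Its log2 difference between the knockouts was -1.71 (adjusted p = 8.05e-06, no overlap).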

How the results depend on the processing

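Over 27 pairs of gene and comparison, 411 values were computed under the alternatives other than the 1.3-fold limit, and 399 kept their direction and their side of the threshold, 2 lost a call, 5 gained one and 5 changed sign. The sign changes were Efna5 in Runx1KO against control cells after median-ratio scaling (0.021) and without control replicate 1 (0.011; range when each library was left out -0.085 to 0.011), and Efnb2 between the knockouts without Runx1KO replicate 3 (0.002), ZebDKO replicate 2 (0.044) and ZebDKO replicate 3 (0.007; range when each library was left out -0.087 to 0.044), none of them called. With the limit at 1.3-fold, 2413 of all genes were called higher and 2444 lower in Runx1KO cells (members higher: 3), 2244 and 4502 in ZebDKO cells (members: 4 and 4), and 4376 and 2404 between the knockouts (members: 4 and 4). With the filter of 5 TPM, fewer genes were tested and 442 were called lower in Runx1KO cells (members: 1, since Epha7 was not tested) and 566 lower between the knockouts. Median-ratio scaling and quantile normalization each left 1 of the 10 genes called lower in ZebDKO cells, and median-ratio scaling left 1 called lower between the knockouts. Leaving out each library in turn gave 1018 to 1041 genes higher and 660 to 681 lower in Runx1KO cells, 961 to 981 and 930 to 993 in ZebDKO cells, and 1175 to 1247 and 847 to 879 between the knockouts, with 0 to 1 of the 10 genes lower in the last and 2 to 3 higher in ZebDKO cells. With flanks of 100 kb, 2 of 10 loci had a closing region with a Runx1 peak, beside 15.4% of all 10708 genes at these flanks. Same-numbered libraries share only a number: their deviations correlated at -0.053 to 0.039, and not every library correlated best with its own number. With the replicate block 1040 genes were called higher and 669 lower in Runx1KO cells, 977 and 945 in ZebDKO cells, and 1207 and 864 between the knockouts, and no call of the 10 genes changed. The causes of these changes were not tested where no reason is given.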
